A study of Mus musculus with 22 samples.

Results

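The interleukins and interleukin receptors were described in mouse cardiac fibroblasts driven towards induced cardiomyocytes. Their members were the names of the deposited expression table that begin with Il and a number, 80 of its 34378 gene names. By name alone they were 36 ligands, 41 receptor chains and 3 other proteins, which were the receptor antagonist Il1rn, the binding protein Il18bp and the secreted enzyme Il4i1. Cardiac fibroblasts (CF), the connective tissue cells of the heart, came from CD1 mice of the aMHC-GFP genotype, which carry a fluorescent reporter under a cardiomyocyte promoter. In the transduced cells a retrovirus carried either MGT, a single transcript that encodes the cardiac transcription factors Mef2c, Gata4 and Tbx5, or lacZ, a bacterial enzyme used as the control. MGT cells and lacZ cells were lysed on days 3, 5, 7, 10 and 14, and untransduced CF stood for day 0, which made 11 groups of 2 arrays each. Every group, controls included, shared the strain and the reporter genotype. The labels give whole cultures without a sort for the reporter, so a level is a mean over converted and unconverted cells, and fewer cells of a type and less RNA per cell cannot be told apart. The submitters' design text sets these arrays beside single-cell sequencing of induced cardiomyocytes.

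Interleukins are secreted signals that cells of the immune system and of connective tissue exchange. Many bind a receptor made of a ligand-binding chain and a shared signalling chain. Such shared chains are gp130 (Il6st) for the IL-6 family, the common gamma chain (Il2rg) for the IL-2 family and Il1rap for part of the IL-1 family. Most receptors signal through JAK kinases and STAT factors, while the IL-1 and IL-17 receptors signal through adaptor proteins to NF-kB. Cardiac fibroblasts are known to secrete IL-6 and IL-33, and to respond to IL-1.

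Promoter sequence is printed for 4 members on which the comparison of MGT and lacZ turns, namely Il6, Il13ra1 and Il23r, whose MGT and lacZ levels did not overlap on any day, and Il33, whose difference changed sign over time. The sequences are the 250 bases before each RefSeq start site on GRCm38.p6, written 5′ to 3′ on the gene's strand. Il6 lies on the plus strand at chr5:30012864-30013113, Il13ra1 on the plus strand at chrX:36111858-36112107 and Il23r on the minus strand at chr6:67491856-67492105. Il33 has 2 RefSeq starts on the plus strand, with windows at chr19:29924863-29925112 and chr19:29945540-29945789. Capitals mark the motifs that were found.
Il6: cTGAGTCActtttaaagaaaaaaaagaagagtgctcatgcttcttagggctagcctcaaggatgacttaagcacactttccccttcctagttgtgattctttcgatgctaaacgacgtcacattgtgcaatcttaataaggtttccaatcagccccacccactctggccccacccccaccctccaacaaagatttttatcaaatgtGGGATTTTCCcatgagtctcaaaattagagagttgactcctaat
Il13ra1: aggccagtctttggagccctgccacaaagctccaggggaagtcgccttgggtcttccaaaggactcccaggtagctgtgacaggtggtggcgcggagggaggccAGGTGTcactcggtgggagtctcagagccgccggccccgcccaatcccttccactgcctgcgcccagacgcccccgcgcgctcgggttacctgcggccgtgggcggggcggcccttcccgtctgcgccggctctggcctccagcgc
Il23r: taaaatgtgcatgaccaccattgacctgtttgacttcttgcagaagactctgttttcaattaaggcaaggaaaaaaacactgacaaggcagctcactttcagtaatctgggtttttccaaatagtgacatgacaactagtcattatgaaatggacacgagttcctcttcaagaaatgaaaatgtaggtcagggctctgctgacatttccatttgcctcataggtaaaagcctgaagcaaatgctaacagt
Il33, first start: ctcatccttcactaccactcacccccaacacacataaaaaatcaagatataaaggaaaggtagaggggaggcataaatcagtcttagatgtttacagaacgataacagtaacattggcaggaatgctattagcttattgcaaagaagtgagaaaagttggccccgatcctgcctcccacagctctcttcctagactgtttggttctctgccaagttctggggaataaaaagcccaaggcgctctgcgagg
Il33, second start: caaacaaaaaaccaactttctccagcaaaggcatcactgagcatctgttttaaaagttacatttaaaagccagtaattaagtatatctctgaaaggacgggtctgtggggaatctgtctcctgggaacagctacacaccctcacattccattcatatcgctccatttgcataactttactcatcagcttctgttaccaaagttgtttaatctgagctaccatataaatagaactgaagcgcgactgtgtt
Both strands were searched for a MEF2 motif (CTA, then NNNN, then TAG), a GATA motif (AGATAA), a T-box motif (AGGTGT), an AP-1 motif (TGANTCA), a STAT motif (TTCNNNGAA) and the NF-kB motif. The Il6 window held the AP-1 letters at positions -249 to -243 from the start site and the NF-kB motif at -44 to -35. The Il13ra1 window held the T-box letters at -146 to -141, and neither the Il23r window nor either Il33 window held any of the 6 motifs. The 2 matches of Il6 did not overlap. RefSeq gave a promoter for 63 of the 80 members. Of those 63, 2 held the MEF2 letters (3.17%, against 3.20% of all 32851 promoters), 11 the GATA letters (17.5% against 9.99%) and 14 the T-box letters (22.2% against 11.8%). The AP-1 letters were in 13 members (20.6% against 6.75%), the STAT letters in 7 (11.1% against 7.02%) and the NF-kB motif in 6 (9.52% against 7.25%). A member with several start sites had more windows in which a motif could be found. Counted over the 77 promoters of these members the shares were 2.60% for MEF2, 15.6% for GATA, 18.2% for T-box, 16.9% for AP-1, 9.09% for STAT and 7.79% for NF-kB. A match describes letters and not a bound site. Il15, Il34, Il7, Il10, Il24, Il25, Il27, Il17b, Il23a, Il1f6, Il12rb1, Il27ra, Il10ra, Il10rb, Il17ra, Il22ra2 and Il2rb had no promoter entry.

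Levels are log2 values of the deposited spot intensity relative to each array's 75th percentile, so that a level of 0 is that percentile, and differences are between such levels. A spot is called well above background as the scanner software flagged it, and between 48.4% and 71.0% of the spots on an array were. The second lacZ day 14 array was the dimmest, with a 75th percentile of 729 intensity units against 1285 to 2124 on the other 21 arrays. The median difference between the 2 arrays of a group ran from 0.0693 on day 3 lacZ to 0.328 on day 14 lacZ. Days 3 and 5 shared slide 1 and days 7 and 10 shared slide 2, but day 14 MGT arrays were alone on slide 4 and lacZ day 14 arrays shared slide 3 with day 0, so for MGT against lacZ on day 14 slide and group cannot be told apart. The same holds for lacZ day 3 against day 0. All 7 cardiomyocyte markers were higher in MGT than in lacZ cells averaged over the 5 days, and 7 of 8 fibroblast markers were lower, among them Pdgfra (-1.35) and Dcn (-1.34), while Thy1 was higher (1.41). None of 8 macrophage markers passed the test in that average, and 4 of 5 endothelial markers were lower. The 8 macrophage markers, summed on the linear scale, ran from 59.0 to 164 in MGT cells, from 47.2 to 286 in lacZ cells and from 42.2 to 44.9 in day 0 cells. Of 6 T cell markers, 4 were lower and 1 higher in MGT cells on average, and 5 were lower on day 14. Cd3e, Cd4 and Lck were well above background on all 22 arrays, Cd8a on 4, and Cd3d and Cd3g on the 2 day 0 arrays alone. The summed T cell markers ran from 3.93 to 13.4 in MGT, from 7.07 to 15.5 in lacZ and from 6.17 to 6.96 in day 0 cells. Of 5 mast cell markers, Tpsb2 was above background on 22 arrays, Mcpt4 on 19, Cpa3 on 4, and Fcer1a and Cma1 on none. Of 4 natural killer cell markers, Gzmb was above background on 4 arrays, Klrb1c on 1, and Ncr1 and Klrk1 on none. On average 1 of 3 tested B cell and 1 of 4 neutrophil markers was lower and none higher. The part of these markers in the results that follow was not tested.

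Of the 80 members, 33 were well above background on all 22 arrays, 10 of them ligands, 21 receptor chains and 2 other proteins, while 9 were on no array. Those 9 were the ligands Il1f6, Il4, Il13, Il31, Il17a and Il17c and the receptor chains Il1rapl1, Il1rapl2 and Il17rb. A further 6 members, Il9, Il21, Il12b, Il17f, Il18r1 and Il20ra, were above background on some arrays but not on both arrays of any group. This left 65 members tested, 26 ligands, 36 receptor chains and the 3 other proteins. The number of members above background on both arrays of a group was 52 in MGT and 52 in lacZ cells on day 3, 42 and 39 on day 5, 54 and 50 on day 7, 43 and 40 on day 10, and 57 and 40 on day 14, with 49 in day 0 cells. Detection on day 5 and day 10 was lower in both vectors than on days 3 and 7. The ligand probes with the highest mean level were those of Il6, Il17d, Il18, Il34 and Il27, and the receptor probes were those of Il11ra1, Il6st, Il15ra, Il3ra and Il17rc. Probes hybridise with different strength, so this says nothing of relative transcript abundance.

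Averaged over days 3 to 14, 30 of the 65 tested members were lower in MGT than in lacZ cells and 10 were higher (limma, adjusted p under 0.05). Over all 27537 names with a value the shares were 35.6% lower and 22.2% higher, against 46.2% and 15.4% of the members. The median member differed by -0.29 and the median name by -0.07. Receptor chains made up most of the lower calls, with 19 lower and 6 higher of 36, while ligands had 8 lower and 4 higher of 26, and all 3 other proteins were lower. On 10 MGT against 10 lacZ arrays, 6 of the 40 called members had levels that did not overlap at all, Il6, Il34, Il6st and Il11ra1 below and Il13ra1 and Il23r above. Over the 27312 names with a value on every array, 2.98% lay below and 4.14% above without overlap. Of the called members, 21 of the 30 lower and 6 of the 10 higher were well above background on all 20 arrays. Within the 4 days whose vectors shared a slide, 27 members were lower and 9 higher, with 20 and 8 on slide 1 and 25 and 7 on slide 2. The averaged calls lost within those 4 days were Il15ra (-0.28, adjusted p = 0.145), Il1rl2 (-0.76, adjusted p = 0.0518), Il1rn (-0.34, adjusted p = 0.13), Il28ra (-0.06, adjusted p = 0.376) and Il7r (0.51, adjusted p = 0.0756). The labels do not say whether the 2 arrays of a group came from separate cultures, so p-values measure only the spread between these arrays.

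**Figure D1:**
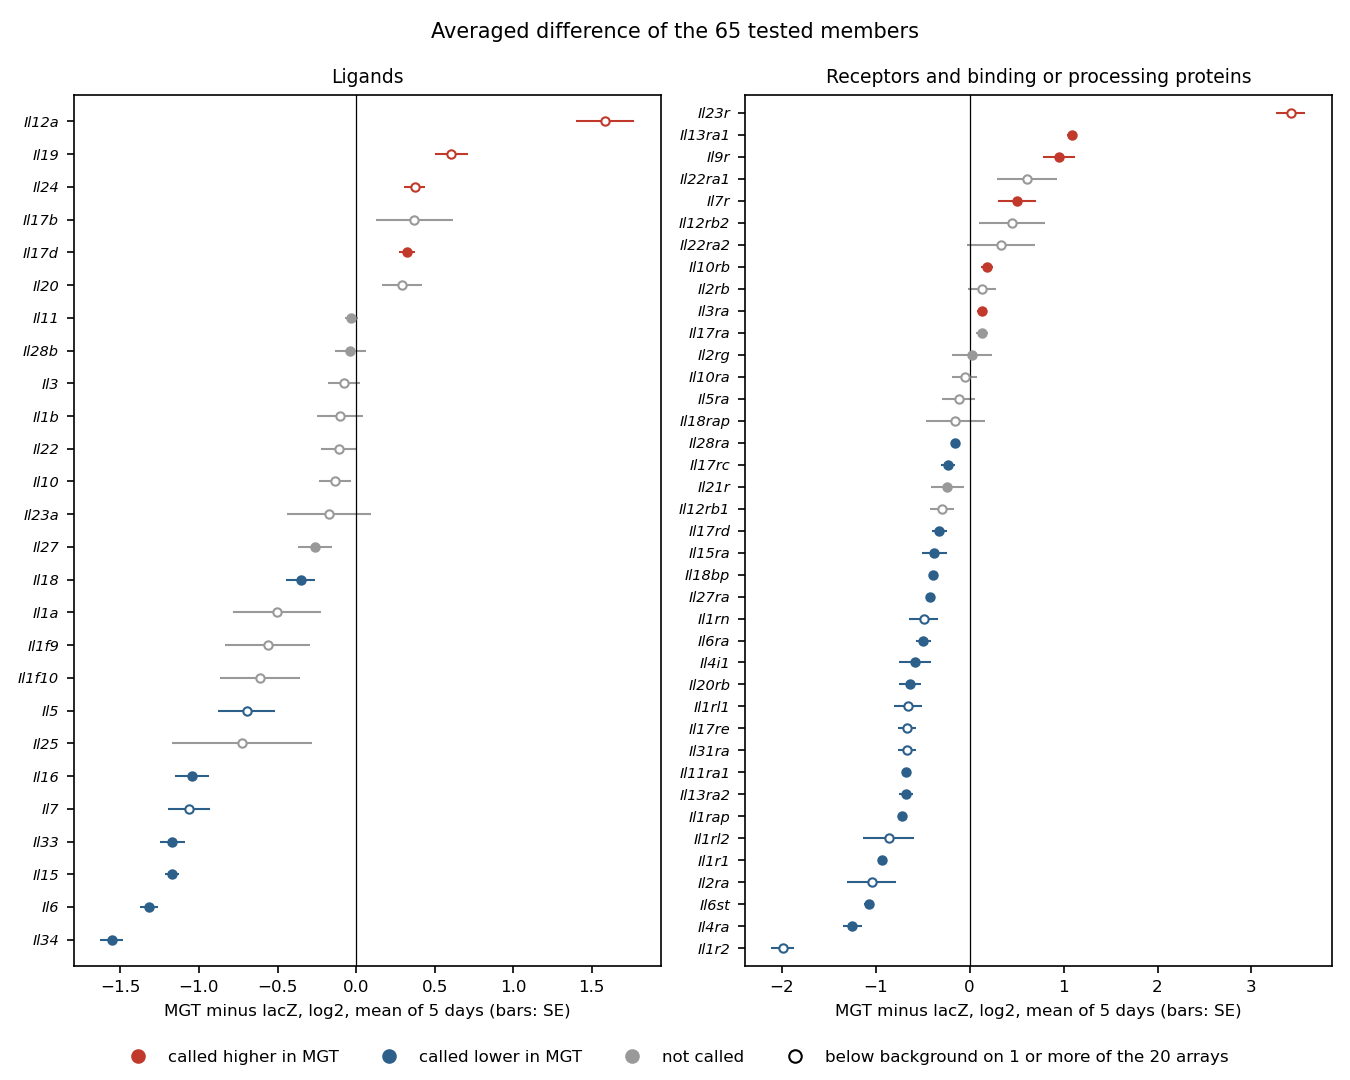
Difference in log2 level between MGT and lacZ cells averaged over days 3 to 14 for each of the 65 tested members, with the standard error from limma as a bar. Hollow points mark members below background on at least 1 of the 20 arrays, and their fitted differences are no bounds. Ligands run from Il12a at the top to Il34 at the bottom, and the other members from Il23r to Il1r2.

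Among the ligands, Il34, Il6, Il15 and Il16 were lower in MGT cells on each of the 5 days. Il34, a second ligand of the CSF1 receptor, had levels in MGT cells of -1.80 and -1.61 on day 3, -2.66 and -2.20 on day 5, -2.83 and -2.36 on day 7, -2.26 and -2.33 on day 10 and -1.92 and -1.98 on day 14. In lacZ cells its levels were -0.61 and -0.61, -0.37 and -0.46, -0.85 and -0.97, -0.59 and -0.85, and -0.42 and -0.67 on the same days. Every MGT array lay below every lacZ array, and the day 0 levels of -1.68 and -1.56 lay at the upper end of the MGT values. The averaged difference was -1.55 ± 0.07 (SE, 10 arrays a vector; adjusted p = 7.1e-10 by limma), or 2.94-fold. Its probe lies at chr8:113265835-113265894 on mm9, the build of the array design.

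Il6, the inflammatory ligand that signals through gp130, had levels in MGT cells of 3.46 and 3.35 on day 3, 2.04 and 1.90 on day 5, 2.95 and 3.24 on day 7, 3.05 and 3.08 on day 10 and 3.02 and 2.81 on day 14. In lacZ cells they were 4.86 and 4.85, 4.11 and 4.15, 4.09 and 4.11, 4.25 and 3.85, and 3.79 and 4.03. No MGT array reached any lacZ array, and both vectors lay below the day 0 cells at 5.89 and 5.91. Il6 was lower in MGT cells by -1.32 ± 0.06 on average (adjusted p = 3.6e-10), with the widest gap on day 5 at -2.16, a 4.47-fold difference. The Il6 probe lies at chr5:30346367-30346426 on mm9, downstream of the promoter window printed above, which is on another build.

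Il15, which sustains natural killer and memory T cells, ran from -3.70 to -1.63 with a median of -3.10 in MGT cells and from -2.56 to -1.04 with a median of -1.45 in lacZ cells. Its averaged difference was -1.17 ± 0.05 (adjusted p = 1.28e-10), and it narrowed to -0.53 on day 14 after -1.65 on day 7. Il16, a chemoattractant for CD4+ cells, ran from -4.01 to -1.78 (median -3.44) in MGT cells and from -2.84 to -0.96 (median -2.50) in lacZ cells. Its difference was -1.04 ± 0.11 (adjusted p = 2.37e-06). Pooled over days the ranges of both ligands overlapped between vectors, and both were highest on day 14, but on each day the 2 MGT arrays lay below the 2 lacZ arrays. The day 3 call of Il16 (adjusted p = 0.0471) was lost in 22 of the 32 alternatives run, leaving out any 1 day 3 array among them, and its day 14 call was lost without the first MGT day 14 array (-0.75, adjusted p = 0.082).

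Il7, the growth factor of developing lymphocytes, was well above background on 4 of 10 MGT and 6 of 10 lacZ arrays and was lower in MGT cells by -1.06 ± 0.13 (adjusted p = 1.5e-05). It was at least 1.56-fold lower on day 5, where 1 of 2 lacZ arrays measured it, and at least 2.32-fold lower on day 7, with no MGT array above background on either day. Here and below, such a bound is the mean of the brighter group over the lowest signal that was well above background on the dimmer group's arrays. Il5, the eosinophil growth factor, was called lower on average (adjusted p = 0.00482) although just 1 MGT and 3 lacZ arrays measured it. It passed the detection filter only through the lacZ day 3 group, so the filter favoured a lower call. Il18, an IL-1 family cytokine released by inflammasomes, was lower by -0.35 ± 0.09 (adjusted p = 0.00587). Its single call by day was on day 10, at -0.83, and was lost without the second MGT day 10 array (-0.68, adjusted p = 0.080).

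Il12a, Il17d, Il19 and Il24 were the 4 ligands that were higher in MGT cells on average. Il17d, an IL-17 family member made outside the immune system, ran from 1.44 to 2.27 (median 1.97) in MGT cells and from 1.17 to 1.87 (median 1.66) in lacZ cells. Its difference of 0.32 ± 0.05 (adjusted p = 7.73e-05) was matched by 0.35 on its second probe. Both vectors lay below day 0 cells, at 3.22 and 3.23. Il12a, the p35 chain shared by IL-12 and IL-35, was above background on 5 MGT arrays, on no lacZ array and on both day 0 arrays, where its levels were -3.38 and -3.53. It was at least 1.71-fold higher in MGT cells on day 7 and at least 2.29-fold higher on day 10, where 1 of 2 MGT arrays measured it. Il19 and Il24, IL-10 family cytokines that act on epithelia, were higher by 0.61 ± 0.11 (adjusted p = 0.000253) and by 0.37 ± 0.06 (adjusted p = 0.000247). They were well above background on 8 and 9 MGT arrays but on 4 lacZ arrays each, none of them from days 5, 10 or 14. Their fitted differences thus include arrays at background. A second Il19 probe gave 0.13 and was not called.

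Of the receptor chains, 6 were higher in MGT cells, and Il23r and Il13ra1 were higher on each of the 5 days. Il23r, the specific chain of the IL-23 receptor, had levels in MGT cells of -4.32 and -4.50 on day 3, -3.97 and -3.95 on day 5, -4.13 and -4.11 on day 7, -3.93 and -3.85 on day 10 and -2.72 and -2.76 on day 14. All 10 MGT arrays and both day 0 arrays, at -4.75 and -5.14, were well above background, and none of the 10 lacZ arrays was, at -8.36 to -5.96. Il23r was at least 3.13-fold higher in MGT cells on average (adjusted p = 5.42e-10). The bounds by day were at least 2.90, 1.52, 3.50, 4.98 and 3.93-fold for days 3, 5, 7, 10 and 14. Its probe lies at chr6:67372966-67373025 on mm9.

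Il13ra1, the chain that binds IL-13 and pairs with Il4ra, had levels in MGT cells of -0.58 and -0.43 on day 3, -0.51 and -0.56 on day 5, -0.30 and -0.14 on day 7, -0.70 and -0.47 on day 10 and -0.93 and -0.93 on day 14. In lacZ cells they were -1.84 and -1.78, -1.94 and -1.98, -1.42 and -1.30, -1.63 and -1.54, and -1.28 and -1.70. Every MGT array lay above every lacZ array, and day 0 cells lay at -0.89 and -0.84, within the MGT range. The averaged difference was 1.09 ± 0.05 (adjusted p = 1.08e-09), with 1.43 on day 5 and 0.56 on day 14. Its probe lies at chrX:33710154-33710213 on mm9.

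The other 4 receptor chains that were higher had smaller or less stable differences. Il9r, the IL-9 receptor, ran from -1.94 to -0.64 (median -1.30) in MGT cells and from -2.81 to -0.73 (median -2.36) in lacZ cells, a difference of 0.96 ± 0.17 (adjusted p = 0.000305). Its 2 lacZ day 14 arrays lay far apart, at -0.73 and -2.36. A second Il9r probe was well above background on no array, so the difference rests on the probe used. Il10rb, the shared second chain of the IL-10 family receptors, was higher by 0.19 ± 0.06 (adjusted p = 0.019). Il7r, the IL-7 receptor chain, was higher by 0.51 ± 0.20 (adjusted p = 0.0471) and Il3ra, the IL-3 receptor chain, by 0.13 ± 0.05 (adjusted p = 0.0481). Those last 2 calls were lost in 26 and 27 of 35 alternatives, leaving out either day 0 array among them.

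The receptors of the IL-1 family were lower in MGT cells in 5 of 6 tested chains, with none higher. Il1r1, the signalling IL-1 receptor, had levels in MGT cells of 2.31 and 2.40 on day 3, 1.67 and 1.61 on day 5, 1.69 and 1.75 on day 7, 1.27 and 1.37 on day 10 and 0.93 and 0.95 on day 14. In lacZ cells they were 2.76 and 2.79, 2.79 and 2.77, 2.75 and 2.91, 2.28 and 2.42, and 1.93 and 1.85. On each day both MGT arrays lay below both lacZ arrays, and day 0 cells lay highest, at 3.58 and 3.48. The averaged difference was -0.93 ± 0.03 (adjusted p = 4.75e-11), or 1.90-fold, and its probe lies at chr1:40372667-40372726 on mm9.

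Il1r2, the decoy IL-1 receptor that binds without signalling, was called lower (adjusted p = 8.09e-09), with a fitted difference of -1.99 ± 0.12 that includes arrays at background. It ran from -7.42 to -3.60 (median -6.22) in MGT cells and from -5.10 to -2.82 (median -3.82) in lacZ cells, and was well above background on 5 MGT and 8 lacZ arrays. On day 10, where no MGT array and 1 of 2 lacZ arrays measured it, it was at least 1.62-fold lower. Il1rap, the shared second chain, ran from -1.93 to -1.05 (median -1.69) in MGT cells and from -1.32 to -0.32 (median -0.94) in lacZ cells, a difference of -0.72 ± 0.05 (adjusted p = 1.5e-08). A second Il1rap probe gave -0.82, and the one left, above background on 10 arrays, gave -0.21 and was not called. Il1rl1, the IL-33 receptor, was lower by -0.66 ± 0.15 (adjusted p = 0.00199), and Il1rl2, the IL-36 receptor, by -0.86 ± 0.27 (adjusted p = 0.0155). Neither was called on any single day. Il1rl1 was well above background on 7 MGT and 8 lacZ arrays. Il1rl2 was so on just 3 MGT and 4 lacZ arrays, none of them from days 5, 10 or 14, so most of its fitted difference is between arrays at background.

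Of 8 tested chains of the gp130 and IL-12 receptor group, 5 were lower in MGT cells and 1, Il23r, was higher. Il6st, the gp130 chain through which IL-6, IL-11, LIF and oncostatin M all signal, had levels in MGT cells of 3.81 and 3.80 on day 3, 3.23 and 3.21 on day 5, 3.49 and 3.56 on day 7, 3.42 and 3.44 on day 10 and 3.43 and 3.31 on day 14. In lacZ cells they were 4.01 and 4.0, 4.53 and 4.56, 4.91 and 4.84, 4.74 and 4.51, and 4.86 and 4.46. The day 3 gap was small, and from day 5 on the vectors stood more than a log2 unit apart by their means, with day 0 cells below both at 3.05 and 2.99. The averaged difference was -1.07 ± 0.05 (adjusted p = 4.57e-10), or 2.10-fold, and its probe lies at chr13:113296586-113296645 on mm9. Il11ra1, the IL-11 receptor chain, ran from 4.77 to 5.06 (median 4.87) in MGT cells and from 5.33 to 5.88 (median 5.54) in lacZ cells, a difference of -0.67 ± 0.04 (adjusted p = 4.23e-09). Its near-identical paralog Il11ra2 can share this signal, so the value is uncertain as to the gene. Il6ra, the IL-6 binding chain, was lower by -0.49 ± 0.08 (adjusted p = 0.0001), Il27ra by -0.42 and Il31ra by -0.67. Il27ra differed by -0.08 (adjusted p = 0.40) within slide 1 and by -0.80 within slide 2. Il31ra was well above background on 6 MGT and 7 lacZ arrays, and its other probe was so on no array.

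Il4ra, the chain shared by the IL-4 and IL-13 receptors, ran from -2.72 to -0.52 (median -1.60) in MGT cells and from -1.19 to 1.00 (median -0.61) in lacZ cells. It was lower by -1.25 ± 0.10 (adjusted p = 1.65e-07), and its other probe gave -0.53. The partner Il13ra1 thus stood higher and Il4ra lower in the same MGT cultures. Whether they did so in the same cells cannot be told from means over whole cultures. Il13ra2, the decoy receptor for IL-13, was lower by -0.68 ± 0.08 (adjusted p = 4.57e-06). Its difference was -0.97 within slide 1 but -0.24 (adjusted p = 0.12) within slide 2. Of 10 tested chains of the common gamma chain and IL-13 group, 4 were lower and 3 higher. Il15ra, which presents IL-15, was called lower by -0.37 ± 0.14 (adjusted p = 0.0306), but its other probe gave 0.44, and the mean of both probes gave 0.03. In the IL-17 receptor group Il17rc, Il17rd and Il17re were lower, by -0.23, -0.32 and -0.66, and none of 4 was higher. Il17rd, however, differed by 0.21 (adjusted p = 0.23) within slide 1 and its lower calls were those of days 7, 10 and 14. Il20rb, a chain of the IL-20 receptors, was lower by -0.63 and Il28ra, the interferon lambda receptor now named Ifnlr1, by -0.15. The 3 other proteins were lower on average, with Il4i1, an amino acid oxidase, at -0.58 (adjusted p = 0.0102), the IL-1 antagonist Il1rn at -0.49 (adjusted p = 0.0172) and the IL-18 trap Il18bp at -0.39 (adjusted p = 6.72e-06).

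**Figure D2:**
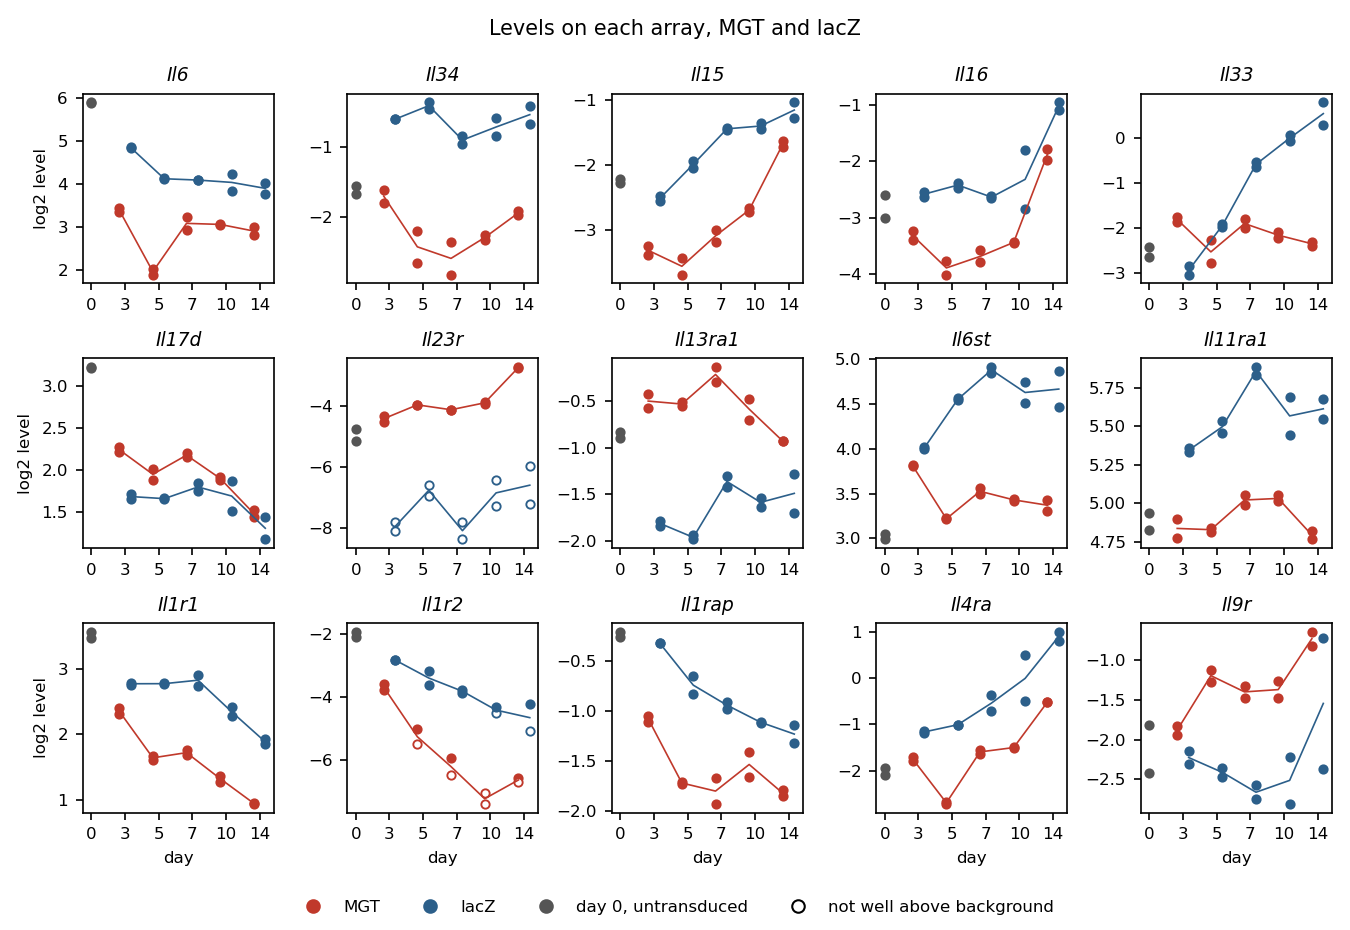
Log2 level on every array (level 0 is the array's 75th percentile) against day for 15 members, with MGT in red, lacZ in blue and day 0 in grey. Hollow points were not well above background and lines join group means. Il6, Il34, Il6st and Il11ra1 separate downward in MGT cells, Il23r and Il13ra1 upward, and the 2 lines of Il33 cross after day 3.

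By day, Il23r and Il13ra1 stayed higher and Il6, Il34, Il15, Il16, Il1r1, Il1r2, Il1rap and Il11ra1 stayed lower throughout, and other members were called on some days. The day 3 call of Il1r2 was lost without any 1 day 3 array, and the day 10 call of Il1rap without the first MGT day 10 array (-0.29, adjusted p = 0.081). On day 3, 10 members were lower and 6 higher, where 12.9% of all names were lower and 9.56% higher. On day 5, 18 were lower and 6 higher (16.8% and 14.2% of all names), and on day 7, 16 and 5 (17.9% and 12.2%). On day 10, 23 were lower and 5 higher (19.8% and 12.9%), and on day 14, 24 and 6 (26.0% and 17.5%). As shares of the 65, lower calls came to 15.4%, 27.7%, 24.6%, 35.4% and 36.9% on the 5 days, and higher calls to 9.23%, 9.23%, 7.69%, 7.69% and 9.23%. In all, 26 of the 65 were called on no day, but the share of all names called on no day was not taken, so this count has no background. A few calls had no array above background and carry no fold, namely Il12a on day 3, Il2ra, Il5 and Il7 on day 10 and Il1f9 and Il23a on day 14. When a fit used the 4 arrays of 1 day alone, the lower calls were 11 on day 10 and 9 on day 14.

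**Figure D3:**
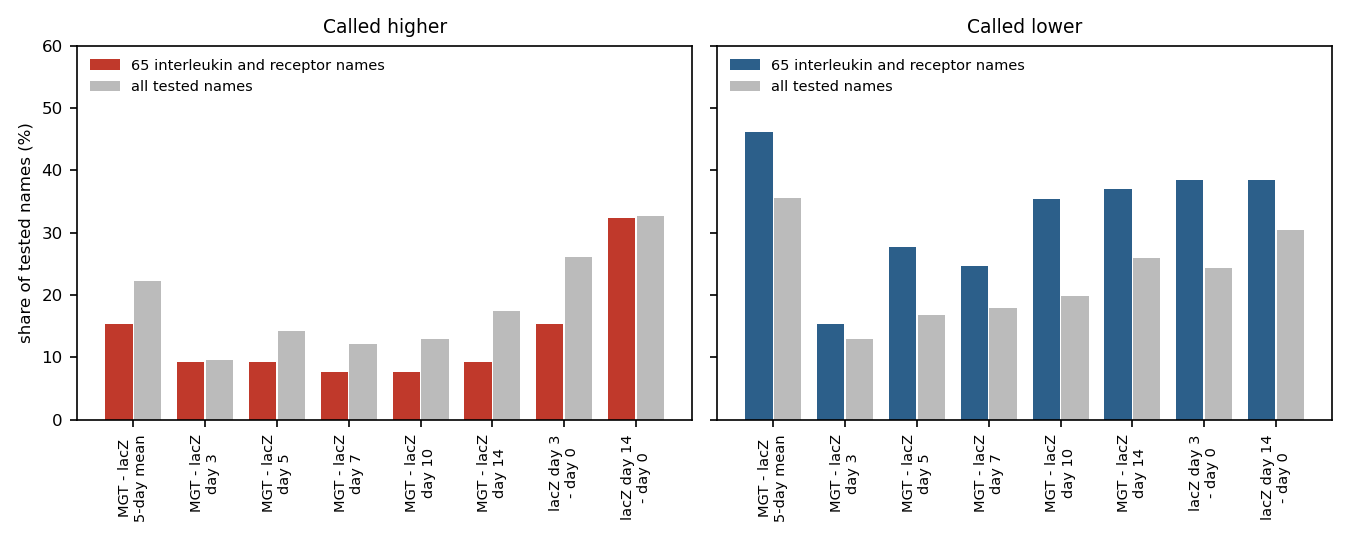
Share of the 65 tested members and of all tested names that were called higher or lower, in percent, for MGT against lacZ by day and averaged, and for lacZ against day 0. The share of members called lower in MGT cells exceeds the share of all names in each MGT comparison drawn, and the share called higher falls below it. On day 3 the shares are close, at 15.4% against 12.9% lower and 9.23% against 9.56% higher.

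Il33, Il18bp, Il23a and Il28ra were called in both directions on different days. Il33, an IL-1 family alarmin held in the nucleus of stromal cells, had levels in MGT cells of -1.76 and -1.87 on day 3, -2.28 and -2.79 on day 5, -2.01 and -1.80 on day 7, -2.23 and -2.09 on day 10 and -2.31 and -2.40 on day 14. In lacZ cells they were -3.04 and -2.85, -1.97 and -1.92, -0.64 and -0.52, 0.07 and -0.06, and 0.80 and 0.30. MGT levels stayed within about a log2 unit over time, while lacZ levels were lowest on day 3 and highest on day 14, and day 0 cells lay at -2.42 and -2.65. The difference was 1.13 ± 0.18 on day 3 (adjusted p = 0.000369), -1.32 on day 7, -2.17 on day 10 and -2.91 ± 0.18 on day 14 (adjusted p = 3.45e-08), a 7.49-fold gap. The day 5 value of -0.59 (adjusted p = 0.0214) was -0.33 (adjusted p = 0.23) without the second MGT day 5 array, and was also lost without either lacZ day 5 array. Averaged over the 5 days Il33 was lower by -1.17 ± 0.08 (adjusted p = 2.71e-08), with 0.27 on slide 1 and -1.74 on slide 2. Its probe lies at chr19:30035101-30035160 on mm9.

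Il18bp had levels of -2.27 and -2.17 in MGT against -1.31 and -1.28 in lacZ cells on day 3, and of -1.76 and -1.83 in MGT against -2.16 and -2.45 in lacZ cells on day 14. The vectors exchanged order, with differences of -0.92 (adjusted p = 2.01e-05) and 0.51 (adjusted p = 0.00132). Il28ra differed by 0.32 on day 3 (adjusted p = 0.0377), a call lost without any 1 of the 4 day 3 arrays, and by -0.54 on day 14 (adjusted p = 0.000934). Il23a, the p19 chain of IL-23 and the ligand of the Il23r receptor, was at least 2.45-fold higher in MGT cells on day 5, with levels of -3.76 and -2.77, while no lacZ array measured it that day. Il23a passed the detection filter only through that MGT group, so the filter favoured this call. Its lower call on day 10 (adjusted p = 0.0151), with 1 lacZ array above background, was lost without that group's second array (adjusted p = 0.17). Among other calls of single days, Il1a was at least 3.84-fold lower in MGT cells on day 14, where 1 of 2 lacZ arrays measured it. Il2ra, the IL-2 receptor alpha chain, was lower by -2.18 ± 0.58 (adjusted p = 0.00866; -1.99 and adjusted p = 0.058 without the first MGT day 14 array) on day 14, and Il24 was at least 1.63-fold higher, a call that normexp background correction turned to -0.0613 (adjusted p = 0.79). Il11, a profibrotic gp130 ligand, was higher by 0.46 ± 0.09 on day 14 (adjusted p = 0.00152), with -1.35 and -1.48 in MGT against -1.85 and -1.91 in lacZ cells.

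The change of the MGT difference between day 3 and day 14 was tested directly. It was downward for 8 members and upward for 3, where 12.6% and 10.3% of all names changed. The downward members were Il33 (-4.04 ± 0.25, adjusted p = 2.88e-07), Il6st (-1.10, adjusted p = 0.000307), Il28ra (-0.86), Il6ra (-0.83, lost without any 1 of 5 arrays), Il13ra1 (-0.75), Il1r1 (-0.52), Il1a and Il1r2. Il18bp (1.43, adjusted p = 2e-05), Il24 and Il11 (0.73) were the upward ones. For Il13ra1 the change is a narrowing of a gap in which MGT cells stayed higher, and for Il6st and Il1r1 a widening of one in which they were lower. Day 3 and day 14 arrays lay on different slides.

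Against the untransduced day 0 cells, lacZ cells of day 3 were lower in 25 of 65 members and higher in 10, where 24.4% and 26.1% of all names were. Of 6 tested IL-1 ligands, 4 were lower and none higher, with differences between -6.80 for Il1b and -0.76 for Il18. Il1b, the main secreted IL-1, had levels of -3.16 and -3.19 in lacZ day 3 cells, against 3.75 and 3.49 in day 0 cells. It fell by 6.80 ± 0.33 on the log2 scale (adjusted p = 3.48e-09), a 111-fold difference, and on day 14, at -2.50 and -2.85, it was 78.5-fold lower. Il1a had levels of -2.84 and -2.83 in lacZ day 3 cells against 1.29 and 1.03 in day 0 cells, 15.9-fold lower. Il1f9, the IL-36 gamma ligand, was well above background on the day 0 arrays and no others, and was at least 7.15-fold lower on day 3. It is among the 4 lower ligands, but it passed the detection filter only through day 0, so the filter favoured a fall. The MGT and lacZ averages of Il1b differed by -0.10, which did not pass the test. The Il1b probe lies at chr2:129190347-129190406 on mm9.

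Other members that stood high in day 0 cells were the receptor Il13ra2, the antagonist Il1rn and the ligands Il11, Il10 and Il12a. Il13ra2 had levels of -0.08 and -0.02 in lacZ day 3 cells and -2.44 and -1.78 in lacZ day 14 cells, against 3.06 and 3.09 in day 0 cells, differences of -3.13 and -5.19. Il11 had levels of -1.44 and -1.66 in lacZ day 3 cells, against 1.12 and 1.11 in day 0 cells, a difference of -2.66, and Il1rn differed by -2.95. The anti-inflammatory Il10 was at least 7.18-fold lower in lacZ day 3 cells and Il12a at least 5.62-fold lower, and neither was above background on any lacZ array. Il6 was lower by -1.04 on day 3 and by -1.99 on day 14, and Il17d by -1.54 and -1.92. Higher on day 3 were Il28ra (1.85 ± 0.10, adjusted p = 1.12e-08), Il3ra (1.20), Il34 (1.01) and Il6st (0.98). Il5 was at least 1.06-fold higher on day 3, a call lost without the second day 0 array (adjusted p = 0.065). This lacZ group was also the only one through which Il5 passed the detection filter.

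By day 14, 25 members were lower and 21 higher in lacZ than in day 0 cells, where 30.4% and 32.6% of all names were. Il28ra had levels of -1.39 and -1.42 in lacZ day 14 cells against -4.75 and -4.74 in day 0 cells, a difference of 3.34 ± 0.10 (adjusted p = 1.84e-11) and 10.1-fold. Both groups lay on the same slide and did not overlap, and the probe lies at chr4:135263946-135264005 on mm9. Il33 was higher by 3.09 ± 0.18 (adjusted p = 5.68e-09), 8.50-fold, Il4ra by 2.92 ± 0.22 (adjusted p = 1.01e-07), Il16 by 1.78 and Il6st by 1.64. Il21r, the IL-21 receptor, had levels of 0.19 and 0.59 in lacZ day 14 cells against -2.18 and -2.25 in day 0 cells, a difference of 2.60 ± 0.39 (adjusted p = 6.67e-05). Il2ra was at least 3.52-fold higher, but it passed the detection filter only through the day 14 groups. On day 3 the lacZ differences from day 0 were 1.85 for Il28ra, 0.98 for Il6st, 0.86 for Il4ra and 0.81 for Il21r. They were 0.22 for Il16 and -0.41 for Il33, and Il2ra was at background. Of 8 macrophage markers, 7 were higher in lacZ day 14 than in day 0 cells, against 2 higher and 3 lower on day 3. Their part in the result was not tested. Of 6 tested IL-1 ligands, 3 were lower on day 14, Il1a, Il1b and Il1f9, and 3 higher, Il33, Il18 and Il1f10. Il1f9 was at background on both lacZ day 14 arrays. Il1f10 was above background on 1 of 2 lacZ day 14 arrays, at -4.19 and -6.64. No day 0 array measured Il1f10, at -7.23 and -7.81.

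**Figure D4:**
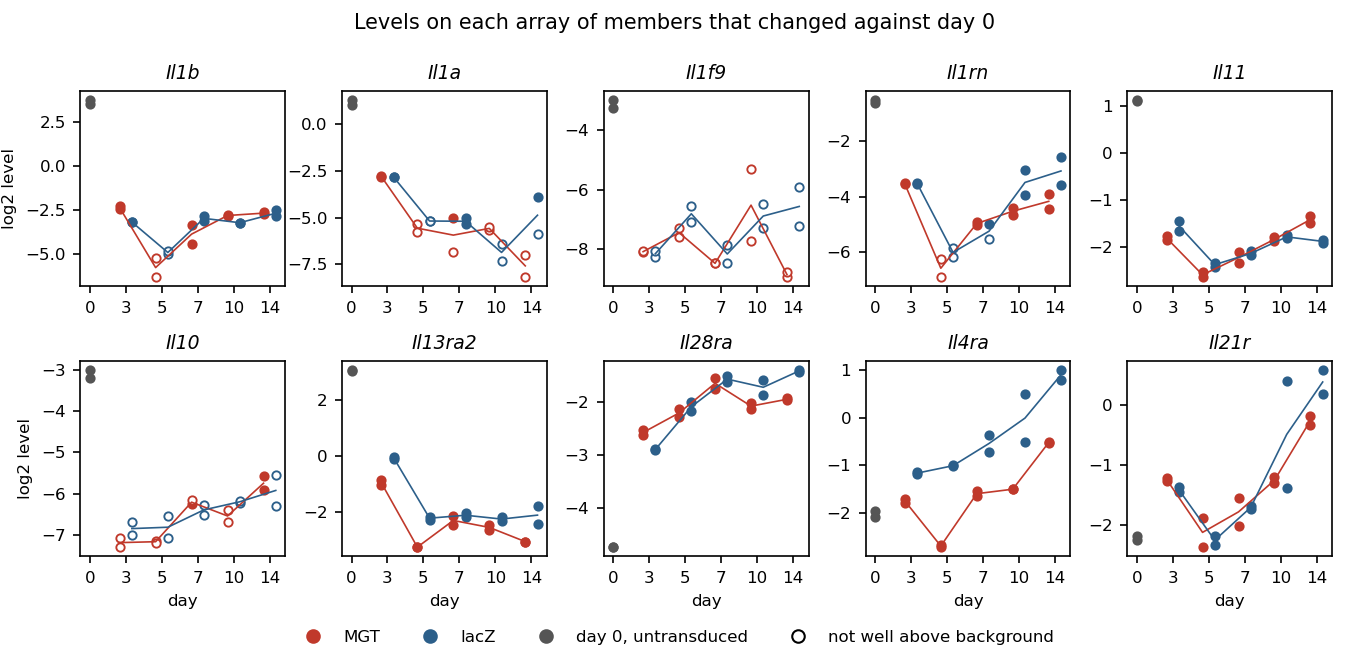
Log2 level on every array against day for 10 members that changed in lacZ cells against day 0, with MGT in red, lacZ in blue and day 0 in grey, hollow points for spots not well above background and lines for group means. Il1b, Il1a, Il1rn, Il11 and Il13ra2 start high on day 0 and lie lower on all later days, and Il28ra, Il4ra and Il21r lie higher on day 14 than on day 0.

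Genes that work with the interleukins were read from 3 lists. Of 41 signalling genes (JAK and STAT proteins, SOCS inhibitors and the IL-1 receptor adaptors with NF-kB), 19 were lower and 10 higher in MGT cells on average, with a median of -0.08. Over all names 35.6% were lower and 22.2% higher, with a median of -0.07, a background that also stands beside the other lists. Cish, an inhibitor of cytokine receptors induced by STAT5, was higher by 1.28, the adaptor of the IL-17 receptor Traf3ip2 by 0.70, while Socs3, an inhibitor of gp130 signalling, was lower by -0.83 and the inflammatory caspase Casp4 by -0.98. Of 19 related cytokines and receptors, 10 were lower and 2 higher, with a median of -0.40. The gp130 ligand Lif was higher by 1.21 ± 0.06 (adjusted p = 1.11e-09), while Osmr, which pairs with gp130, was lower by -1.15 ± 0.05 (adjusted p = 3.71e-10). The colony-stimulating factors Csf3 and Csf2 were called lower too, but were well above background on 3 and 0 MGT and on 4 and 2 lacZ arrays. Of 16 genes known to respond to IL-1 or IL-6 in stromal cells, 12 were lower and 3 higher, with a median of -0.61. The matrix protease Mmp3 was lower by -2.83, the chemokine Cxcl5 by -2.64 and the adhesion molecule Vcam1 by -1.05, while the acute phase protein Saa3 was higher by 1.22. In lacZ day 14 against day 0 cells 15 of these 16 were lower and none higher, where 30.4% of all names were lower and 32.6% higher.

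The remaining 25 tested members did not pass the test in the averaged comparison, with differences between -0.73 and 0.61. They include the ligands Il1f10, Il3, Il22, Il25, Il17b, Il27 and Il28b (now named Ifnl3) and the receptor chains Il2rg, Il10ra, Il17ra and Il5ra. Il2rg is the common gamma chain and Il10ra binds IL-10. For Il12rb1, an IL-12 receptor chain, the 2 probes differed in sign, at -0.29 and 0.42. Il12rb2, its partner, had levels of -0.66 and -4.50 on the 2 MGT day 10 arrays, so the first of them stood apart from its replicate.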

How the data were processed

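Per the file headers, total RNA labelled with 1 dye was hybridised to Agilent mouse arrays with 60-base probes, and Agilent Feature Extraction 10.7.3.1 gave each spot an intensity. The authors' deposited table holds normalized intensities, and the submitters' processing notes name limma without a version; the table served as an alternative. The members and lists were chosen with earlier results of these data known.

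From the scanner files, the deposited processed intensity of 59305 non-control spots was divided by the array's own 75th percentile and put on the log2 scale, and no spot was saturated. Outlier spots were left out and spots of 1 probe averaged. Of 55681 probes, 38813 were kept, those flagged well above background on the 2 arrays of some group, and each name took its kept probe with the highest mean, which left 27539 names. limma 3.58.1 in R 4.3.3 fitted 11 group means to 22 arrays with 11 residual and 1.64 prior degrees of freedom, Benjamini-Hochberg adjustment over all names and a threshold of 0.05. SE is that of the fit. A fold bound takes, for the dim group, the lowest signal well above background or the probe's own, whichever is higher. The fit was tested on simulated data. The number of arrays limits the precision.

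Replicate numbers of MGT and lacZ did not pair the arrays, since their deviations correlated between -0.0353 and 0.0838. The named members were those with the largest called averaged differences of 1 sign on all 5 days in each class, the largest calls of each day and of lacZ against day 0, the highest levels, and those called in both directions; members outside this rule were named after their values were seen. Other background corrections, scalings, filters, probe choices, subsets of arrays, slides, a replicate block and leaving out each array were the alternatives. Promoters came from RefSeq.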

Additional observations from a re-analysis of the deposited data

Results flagged for a closer look

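The difference between MGT and lacZ cells was itself different on day 14 and on day 3 for 11 members, by a test of that change (limma, adjusted over all names). The change was downward for 12.3% and upward for 4.62% of the tested members, against 12.6% and 10.3% of all names. Il33 changed by -4.04 (adjusted p = 2.88e-07), from higher in MGT cells on day 3 to lower on day 14. Il18bp changed by 1.43 (adjusted p = 2e-05), the opposite way. Il6st changed by -1.10 (adjusted p = 0.000307), Il28ra by -0.86 (adjusted p = 0.0011), Il6ra by -0.83 (adjusted p = 0.027) and Il1r1 by -0.52 (adjusted p = 0.00384). Il11 changed by 0.73 (adjusted p = 0.00202). Il13ra1 changed by -0.75 (adjusted p = 0.00697), a call lost under 3 alternatives. Il24 changed by 0.91 (adjusted p = 0.00662), but the sign was the other one under normexp background correction. The changes of Il1a (-2.74, adjusted p = 0.0408) and Il1r2 (-1.13, adjusted p = 0.0473) passed narrowly and were lost in 19 and 21 of 31 alternatives. Day 14 arrays lay on other slides than day 3 arrays, so slide and day cannot be told apart here.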

How the results depend on the processing

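For 258 values of single members, each under 31 to 35 alternatives, 8255 refitted values resulted, of which 7789 kept direction and side of the threshold, 340 lost the call, 115 gained it and 11 changed sign. The averaged calls of Il6, Il34, Il15, Il16, Il7, Il12a, Il17d, Il23r, Il13ra1, Il9r, Il1r1, Il1r2, Il1rap, Il6st, Il11ra1, Il4ra and Il18bp held in every alternative run on them. Il7, Il12a, Il23r and Il1r2 were not above background on every array, so the alternative that kept only such probes did not test them. Under normexp the members higher on average were 6, on day 10 3, and the members lower on day 14 37 and in the change between days 18. Keeping only probes above background on every array left 6 higher on average, 3 on day 5, 3 on day 7, 2 on day 10 and 3 on day 14, with 15 lower on day 10, 16 lower in lacZ day 3 and 13 in lacZ day 14 against day 0. Fits of just the arrays compared gave 2 higher and 11 lower on day 10 and 1 higher and 9 lower on day 14, and over all names 3460 calls on day 10, 2414 on day 14, 3250 in the change and 9590 for lacZ day 14, against 9010, 11981, 6286 and 17350. Quantile scaling gave 5 upward changes, slide 1 alone 10308 averaged calls over all names against 15908, and no filter 9506 in the change. Signs changed for Il15ra on average (0.0531 in the deposited table, 0.0324 as mean of probes) and on day 14 (0.30 in the deposited table), for Il20 on day 14 (-0.41 under normexp, -1.01 in the deposited table), and under normexp for Il19 on day 14 (-0.53), Il24 on day 14 (-0.0613) and Il24 in the change (-0.10). On slide 1 alone (days 3 and 5) the averages of Il23a (1.71), Il28ra (0.10), Il33 (0.27) and Il17rd (0.21) changed sign, as did others that were not called on average, since the alternative leaves out the later days. The cause of the others was not tested. Leaving out 1 array at a time, members higher ranged 8 to 11 on average, 5 to 7, 3 to 8, 3 to 6, 4 to 7 and 5 to 7 on days 3 to 14, 3 to 6 in the change, and 8 to 11 and 18 to 23 for lacZ day 3 and day 14. Members lower ranged 29 to 34 on average, 8 to 11, 16 to 21, 15 to 21, 18 to 28 and 16 to 27 by day, 5 to 14 in the change, and 20 to 27 and 23 to 26 for lacZ. Over all names calls ranged 14997 to 17612 on average, 3999 to 7791, 6074 to 10717, 6092 to 10228, 6506 to 11265 and 8939 to 14166 by day, 4255 to 10584 in the change, and 11105 to 15954 and 15351 to 18384 for lacZ. Of all names called, the percentage higher was 38.4 on average, 42.6 on day 3, 39.4 on day 10, 40.1 on day 14, 44.9 in the change and 51.8 for lacZ day 14. Scaling on probes above background everywhere moved it to 51.1, 53.9, 49.9 and 53.3 for the first 4. On day 14 it was 22.7 under normexp, 50.3 under quantile scaling, 51.2 in the deposited table, 28.0 with no filter and 56.6 with those arrays alone (day 10, 51.7). In the change it was 28.5, 56.2, 56.9 and 29.3 under the first 4 of these, and for lacZ day 14 64.3 under normexp. Normexp moved the median of all names to -0.31 on day 14 and -0.29 in the change. The replicate block left the averaged counts at 10 higher and 30 lower, and among single values 4 lost and 1 gained a call; the replicate numbers do not pair the arrays. Dim members limit the rest: of 80 members 33 were above background everywhere.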
